A study of Mus musculus with 31 samples.

Results

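The genes described here carry symbols that start with Nduf, the name for subunits and assembly factors of respiratory complex I. Members were all rows of the count tables whose RefSeq accession maps to such a symbol, with a row in each of the 3 depots. There were 43 of them among 17334 accessions in the tables, each with its own symbol and a single row. RNA-seq measured them in interscapular brown fat (iBAT), inguinal white fat (iWAT) and epididymal white fat (eWAT) of male C57BL/6J mice aged 8 weeks. All mice were acclimated at thermoneutrality for 8 days. They were then killed at once (day 0) or kept at 4 °C for 2 or 4 days, so every group shares strain, sex, age and acclimation, and no transgene or drug was used. At days 0, 2 and 4 there are 3, 4 and 3 iBAT libraries and 4, 3 and 5 iWAT libraries, with 3 eWAT libraries at each time. A library's name here joins its depot and the number on its label. Nothing in the labels says whether libraries of a group came from separate animals or from pools, so p-values measure only the spread between these libraries.

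Complex I takes electrons from NADH, passes them to ubiquinone and pumps protons out of the mitochondrial matrix. Its peripheral arm, in the matrix, holds the NADH site and the iron-sulfur clusters, and its membrane arm holds the proton pumps. Core subunits of the peripheral arm and all accessory subunits are encoded in the nucleus, while the core subunits of the membrane arm are encoded by mitochondrial DNA and carry other symbols. In brown adipocytes Ucp1 lets the pumped protons flow back as heat, so the tissue is known for dense mitochondria and a high respiratory capacity. The members comprise 6 of the 7 core subunits of the peripheral arm (Ndufs3, Ndufs7, Ndufs8, Ndufv1 and Ndufv2 among them) and 9 accessory subunits of that arm. They also include 17 accessory subunits of the membrane arm and the acyl carrier protein Ndufab1, which sits in both arms. A further 8 are assembly factors named Ndufaf. The remaining 2 are Ndufa4, now assigned to complex IV, and its paralog Ndufa4l2. The core subunit Ndufs1 had no row, and 43 of 54 Nduf symbols in RefSeq had one.

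Levels are in CPM (read counts divided by library size), with library sizes scaled by TMM (trimmed mean of M-values). A log2 difference of 1 is a doubling, each standard error (SE) comes from the edgeR fit, and a gene was called where its edgeR quasi-likelihood p, adjusted by Benjamini-Hochberg over all rows tested, was under 0.05. Of the 43 members, 41 passed the filter on low counts in iBAT, in iWAT and in the fit of all 31 libraries, and 40 in eWAT. Ndufs6 (62 counts over all libraries, on a row for a non-coding transcript) and Ndufv3 (14 counts) were tested nowhere, and Ndufaf5 (312 counts) was not tested in eWAT alone. The members' transcripts are short, with a median of 861 bases and 26 of 43 under 1000 bases.

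Libraries held 1.5 to 5.53 M counts. Markers of brown adipocytes summed to 4814 to 9165 CPM in iBAT at day 0, 84.7 to 649 CPM in iWAT at day 0 and at most 49.9 CPM in any eWAT library. Ucp1 alone gave a mean of 6716 of 7132 CPM in iBAT at day 0. Zic1, a brown fat marker, was at 0.0 CPM in every group of white fat. All iBAT libraries also held skeletal muscle markers, at 20316 to 62965 CPM at day 0, 7469 to 12385 at day 2 and 4402 to 24791 at day 4. Lymphocyte markers stood at 806 to 4420 CPM in iWAT. Markers of sperm and epididymis summed to 20245 CPM in eWAT516, 37431 in eWAT532, 13751 in eWAT551 and 6041 in iWAT555, against at most 2290 in the other libraries. Different genes made up these sums. Akr1b7 gave 5227 of 7397 CPM of the eWAT mean at day 0 and 10499 of 13429 at day 2. At day 4 it gave 6.4 of 5539, and Spink11 gave 1956. In iBAT548 and iBAT539 few features had a count of 1 (57 and 159). Whether a missing value is a count of 0 in these 2 libraries was not tested.

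Promoters were read because many members moved together between depots, and because nuclear respiratory genes are known targets of NRF1, YY1, ETS factors and CREB. Of the 43 members, 38 matched a RefSeq promoter (GRCm38.p6, the assembly of mm10), taken as 250 bases before to 50 after the start. The NRF1 pattern, which is GCGCA, then any base, then GCGC, searched on both strands, occurred in 7 of these 38 genes (18.4%) against 5.19% of 27025 genes. This pattern is nearly its own reverse complement, and a palindromic match was counted once per gene. The stretches of 4 of the 7 are shown 5′ to 3′ on the gene's strand, with the NRF1 letters in capitals.
Ndufa11, chr17:56717677-56717736, plus strand: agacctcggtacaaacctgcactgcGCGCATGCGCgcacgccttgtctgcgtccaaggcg
Ndufa8, chr2:36049339-36049393, minus strand: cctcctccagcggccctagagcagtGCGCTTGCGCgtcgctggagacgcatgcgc
Ndufa5, chr6:24527691-24527741, minus strand: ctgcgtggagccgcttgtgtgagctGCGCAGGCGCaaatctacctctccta
Ndufaf4, chr4:24897945-24898004, plus strand: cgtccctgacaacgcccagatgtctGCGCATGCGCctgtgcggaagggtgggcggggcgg

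The YY1 letters AAGATGGC, searched on both strands, occurred in 8 of the 38 members (21.1%) against 3.19% of all genes. In each of the 8 they lay after the start of transcription. Short windows around them are shown for 6, to let the shared letters be compared, with the YY1 letters in capitals.
Ndufs7, chr10:80249463-80249490, plus strand: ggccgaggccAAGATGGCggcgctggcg
Ndufb8, chr19:44555393-44555414, minus strand: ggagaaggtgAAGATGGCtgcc
Ndufa9, chr6:126849098-126849125, minus strand: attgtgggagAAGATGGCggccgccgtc
Ndufa3, chr7:3617385-3617412, plus strand: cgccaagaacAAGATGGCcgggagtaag
Ndufc1, chr3:51408916-51408943, minus strand: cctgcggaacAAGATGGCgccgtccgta
Ndufs4, chr13:114388045-114388069, minus strand: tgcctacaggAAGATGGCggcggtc

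The letters AAGATGGC include the triplet ATG, and whether that triplet is the translation start of these genes was not tested. The CREB letters TGACGTCA were found in 3 members (7.9%, against 2.03% of genes), the ETS letters CCGGAAG in 6 (15.8%, against 9.93%) and the Sp1 letters GGGGCGGGG in 6 (15.8%, against 12.9%). The ERR letters TCAAGGTCA were in none of the 38 windows, and in 0.466% of all genes. Each match is a description of the letters. The shares of genes are over all 27025 with a promoter, whether or not expressed in fat, and expressed genes alone were not compared. Members called higher in iBAT than in iWAT at day 0 numbered 5 of 7 tested with the YY1 letters, 3 of 6 with NRF1, 5 of 6 with ETS, 5 of 6 with Sp1 and 1 of 3 with CREB. Over all tested members they numbered 25 of 41, and over all rows 8.12% were higher.

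Summed over all 43 rows, complex I transcripts stood highest in brown fat. At day 0 the iBAT libraries held 47543, 42661 and 35765 CPM, the iWAT libraries 11323, 8830, 11836 and 11528 CPM, and the eWAT libraries 8358, 9176 and 8524 CPM. The lowest of the 10 iBAT libraries at any day (35647 CPM) was above the highest of the 21 white fat libraries (29642 CPM). In iWAT the 3 libraries of day 2 (25656, 20688 and 14585 CPM) all lay above day 0. At day 4, 4 of 5 did (23218, 23786, 16107 and 29642 CPM). The fifth, iWAT555, was at 9108 CPM, inside the day 0 range, and has the highest sperm and epididymis sum (6041 CPM; iWAT522 is next at 928), the highest lymphocyte sum (4420) and the lowest adipocyte sum (8414) of the iWAT libraries. Their part in its low level was not tested. In eWAT the libraries of day 4 (13359, 9407 and 11009 CPM) also all lay above day 0. Without TMM scaling, eWAT551 was at 9621 CPM, below day 0 (10601, 10697 and 10196), and eWAT548 and eWAT553 above it (14455 and 11555). The eWAT libraries of day 2 (8944, 11974 and 12122 CPM) overlapped with day 0. The iBAT means were 41990, 48554 and 47656 CPM at days 0, 2 and 4, with overlap between the days. Without TMM scaling the iBAT libraries ran from 32098 to 42954, from 34357 to 46349 and from 32913 to 42079 CPM. In bulk tissue a change in the share of a cell type and a change in RNA per cell cannot be told apart.

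**Figure D1:**
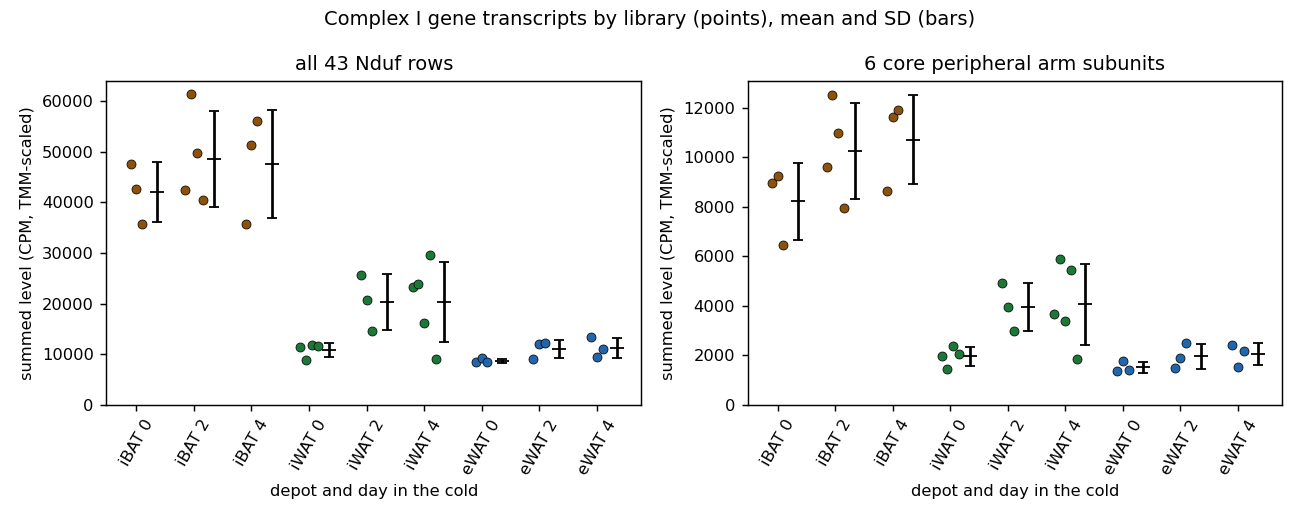
Summed level of the 43 Nduf rows (left) and of the 6 core peripheral arm subunits (right), in CPM on TMM-scaled library sizes, by depot and day in the cold; points are libraries and bars the mean and SD. All 10 iBAT libraries lie above all white fat libraries in the left panel, and 7 of the 8 cold iWAT libraries lie above the 4 at day 0.

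The peripheral arm made up 34.6% to 49.2% of the members' sum across the 31 libraries. In the mean of day 0 libraries the core peripheral subunits summed to 8218 ± 1540 CPM (SD, n = 3) in iBAT, 1966 ± 384 (n = 4) in iWAT and 1517 ± 227 (n = 3) in eWAT. Accessory membrane arm subunits summed to 21156 ± 2560, 5420 ± 208 and 4246 ± 311 CPM in the same groups. The 8 assembly factors were far scarcer, at 685 ± 135, 349 ± 62.6 and 240 ± 20.6 CPM. Per kilobase of transcript in iBAT at day 0, Ndufb9 (10302 CPM per kb) and Ndufa6 (6907), both proteins of the LYR family, were highest, followed by Ndufc2 (3083) and Ndufa2 (2863). Among the rows tested the least abundant per kilobase were Ndufaf5 (8.06 CPM per kb) and Ndufa4l2 (16.6). In iWAT at day 0 the order began with Ndufa1 (2426 CPM per kb), Ndufa6 (1524) and Ndufb9 (1510), but Ndufa1 and Ndufb9 varied widely between its libraries, as described below. Ndufa4 gave 39.5 CPM in iBAT at day 0, and was higher there than in iWAT (9.5 CPM; 2.07 ± 0.68, adjusted p = 0.0338) and eWAT (8.03 CPM; 2.30 ± 0.75, adjusted p = 0.0478). Reads of a gene with near-identical copies can be split between them, so its level is uncertain.

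Brown fat exceeded both white depots at thermoneutrality in most members. Against iWAT, 25 of 41 tested members were higher in iBAT and none was lower, with a median log2 difference of 1.88, where 8.12% of all 11041 rows tested were higher and the median over all rows was -0.18. Against eWAT, 22 of 41 were higher and none lower, with a median of 2.08, against 5.07% of all rows and a median of -0.18. Both comparisons use the same 3 iBAT libraries. In 29 members every iBAT library was above every iWAT library (15.3% of all rows), and in 32 every iBAT library was above every eWAT library (14.1% of all rows).

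All 6 core subunits of the peripheral arm with a row were called higher than in iWAT, and 5 of 6 higher than in eWAT. Ndufv1, which binds NADH and its flavin, had 565, 1170 and 679 CPM in iBAT, 184, 237, 98.5 and 97.5 in iWAT and 107, 126 and 296 in eWAT. Its differences were 2.38 ± 0.47 (adjusted p = 0.000656) and 2.19 ± 0.51 (adjusted p = 0.00627). Ndufs3, a core subunit near the ubiquinone site, had 2474, 2391 and 1446 CPM in iBAT and 295, 462 and 261 in eWAT, a difference of 2.63 ± 0.54 (adjusted p = 0.00191). The exception was Ndufs8, an iron-sulfur subunit, at 128, 453 and 302 CPM in iBAT and 59.6, 35.6 and 141 in eWAT. Its iBAT library at 128 CPM lay under the highest eWAT library, and its difference from eWAT was 1.90 ± 0.66 (adjusted p = 0.0649).

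Accessory subunits were called in part. Of 17 in the membrane arm, 10 were higher in iBAT than in iWAT and 10 than in eWAT; of 7 tested in the peripheral arm, 5 and 5. Ndufc2, a membrane arm subunit, had 2582, 1254 and 2480 CPM in iBAT and 149, 557, 197 and 232 in iWAT, a difference of 2.89 ± 0.63 (adjusted p = 0.00187). Ndufb9 had 9947, 5752 and 6059 CPM in iBAT, 582, 628, 540 and 2502 in iWAT and 1170, 1496 and 394 in eWAT, so all iBAT libraries were above all white fat libraries of day 0. Its differences were 2.77 ± 0.77 (adjusted p = 0.0126) and 2.83 ± 0.86 (adjusted p = 0.0325). Ndufa9, at the junction of the arms, differed by 2.65 ± 0.54 from iWAT (573 ± 161 against 91.2 ± 59.9 CPM, SD, n = 3 and 4; adjusted p = 0.000949). Ndufb8 differed by 2.71 ± 0.59 from iWAT (adjusted p = 0.00175), Ndufb5 by 2.69 ± 0.57 from eWAT (adjusted p = 0.00235) and Ndufc1 by 2.62 ± 0.80 from eWAT (adjusted p = 0.0327). Ndufab1, the acyl carrier, had 2576, 1702 and 1636 CPM in iBAT and 202, 236, 73.6 and 602 in iWAT. It differed by 2.82 ± 0.78 (adjusted p = 0.0125) from iWAT and by 2.44 ± 0.86 (adjusted p = 0.0671) from eWAT. At the other end, Ndufa1, an X-linked membrane arm subunit, had 774, 1703 and 700 CPM in iBAT and 1388, 951, 1643 and 82.4 in iWAT, which overlap. Its difference was 0.06 ± 1.01 (adjusted p = 0.973).

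Fewer assembly factors than subunits were called between depots. Of the 8, Ndufaf1 and Ndufaf8 were higher in iBAT than in iWAT, and Ndufaf8 than in eWAT. Ndufaf1, which works on the membrane arm, had 197, 222 and 144 CPM in iBAT and 31.8, 25.1, 20.2 and 83 in iWAT, without overlap, a difference of 2.22 ± 0.65 (adjusted p = 0.0172). Ndufaf8, the partner of Ndufaf5, averaged 160 CPM in iBAT and 50.4 in iWAT, a difference of 1.67 ± 0.57 (adjusted p = 0.0434). Ndufaf3 and Ndufaf4, which act together early in assembly, differed from iWAT by 0.29 ± 0.58 and 0.41 ± 0.48 (adjusted p = 0.759 and 0.58). Ndufaf7, a methyltransferase, and Ndufaf2, a late-acting chaperone, differed by 0.71 ± 0.43 and 0.62 ± 0.84 (adjusted p = 0.256 and 0.634). Ndufaf6, an early-acting factor, differed by -0.21 ± 1.24 (adjusted p = 0.92). Whether assembly factors and subunits differ in their depot contrast was not tested.

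Marker genes of several cell types differed between the depots too. In iBAT516, iBAT517 and iBAT518 the muscle markers summed to 24428, 20316 and 62965 CPM. The summed member levels of these libraries were 47543, 42661 and 35765 CPM. Against iWAT and eWAT, 14 and 14 of 16 muscle markers, 5 and 5 of 5 brown adipocyte markers and 5 and 4 of 10 immediate early genes were higher in iBAT. Lymphocyte markers were lower in 10 and 0 of 10, epithelial and keratinocyte markers in 4 and 6 of 7, and sperm and epididymis markers in 4 and 5 of 10. The part of these in the members' depot differences was not tested. The count against eWAT was 12 without iBAT516, 14 without iBAT517, 11 without eWAT516, 13 without eWAT517 and 13 without the 4 libraries rich in sperm and epididymis markers. Calls over all rows, in either direction, fell too, from 1135 to 597, 586, 632, 836 and 826 in the same order.

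**Figure D2:**
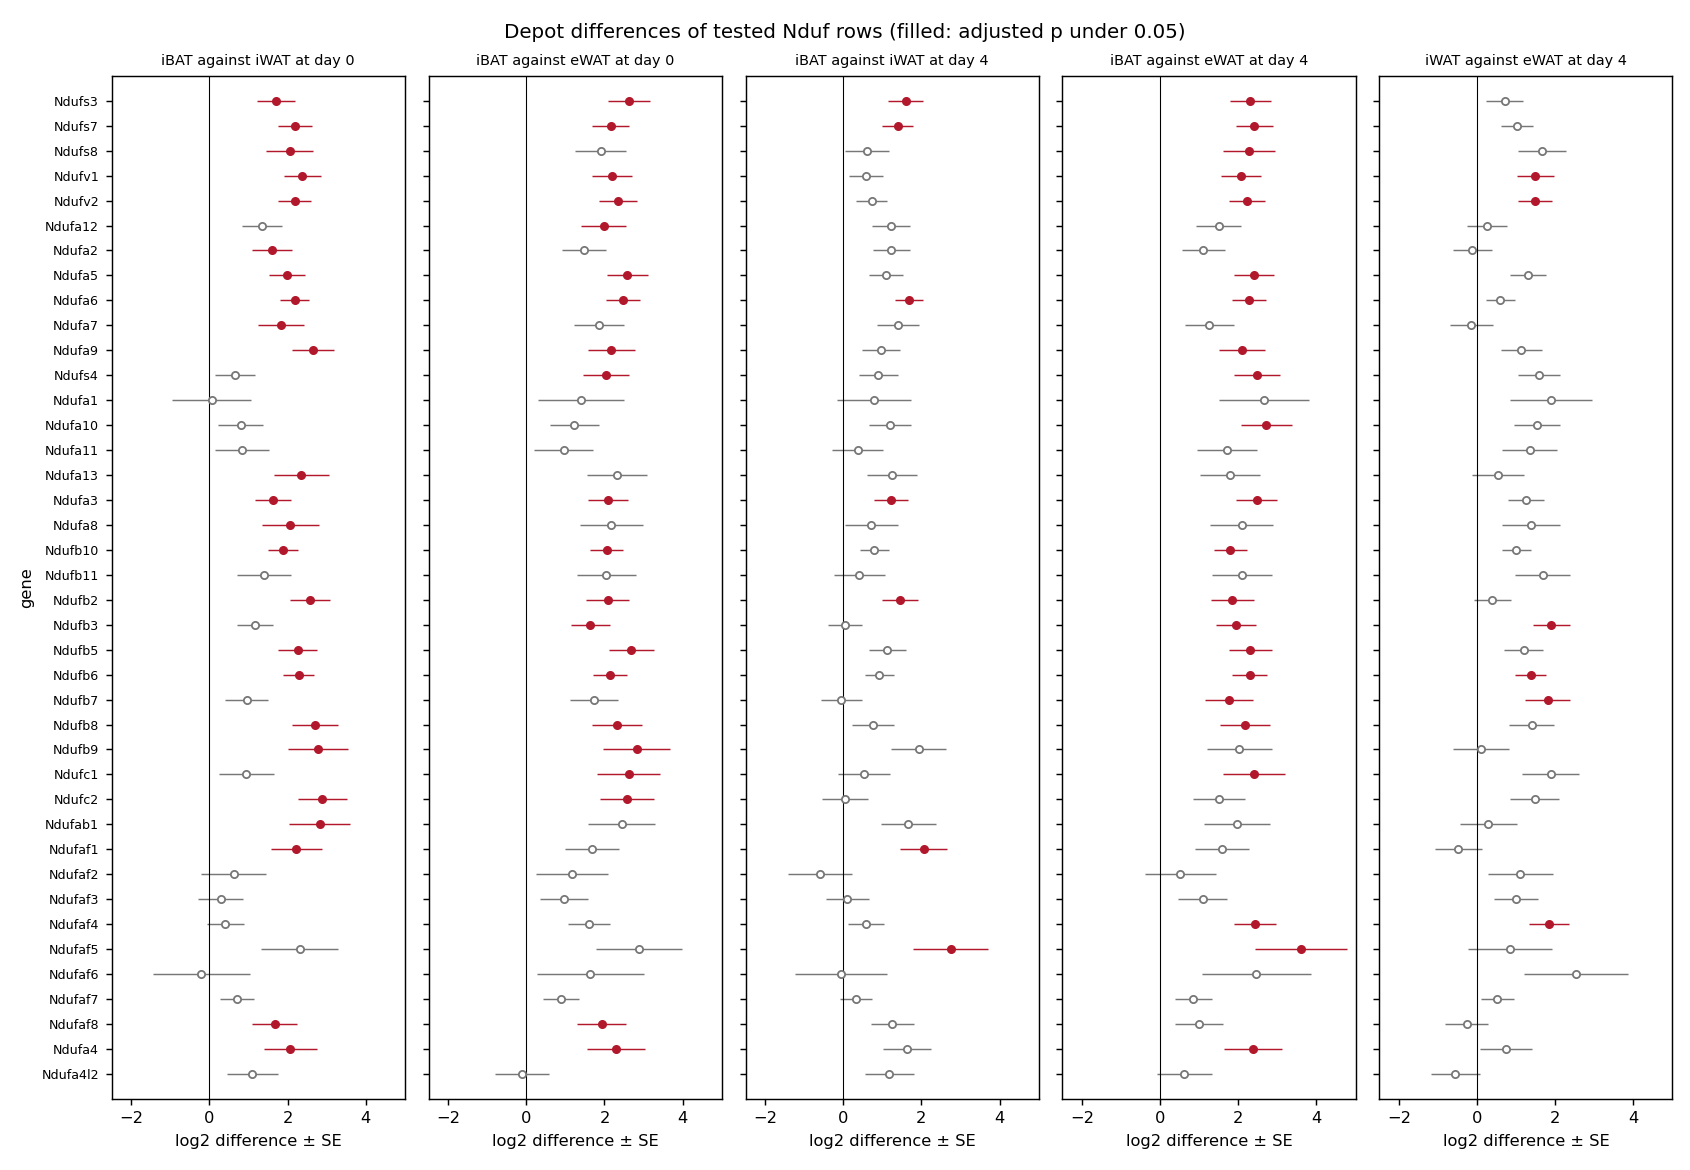
Log2 differences ± SE of the tested Nduf rows (vertical axis, in the order core, peripheral, membrane, acyl carrier, assembly, complex IV) in 5 depot comparisons; filled red points have an adjusted p under 0.05. A row left out of the plot is not reported here; all filled points lie to the right of 0, higher in the depot named first.

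At day 0 edgeR called no member between the white depots. Of 41 members 0 were called between iWAT and eWAT by edgeR, where 5.02% of all rows were higher in iWAT, and 3 had an unadjusted p under 0.05, as did 21.5% of all rows. The median was 0.23, limma voom called 0, and DESeq2 called 1 member, Ndufs4 (1.42, adjusted p = 0.0427), an accessory subunit known from Leigh syndrome. Over all 11041 rows, in either direction, DESeq2 called 1283. Ndufs4 had 678, 248, 512 and 282 CPM in iWAT and 156, 153 and 186 in eWAT, without overlap, and 1.38 ± 0.54 in edgeR (adjusted p = 0.125). It was the only member with every iWAT library above every eWAT library, as were 10.1% of all rows. Ndufa4l2 lay the other way, at 7.17 ± 2.2 against 16.7 ± 7.03 CPM (SD, n = 4 and 3; -1.20 ± 0.65, adjusted p = 0.297), and every iWAT library (5.34 to 10.3) was below every eWAT library (11.8 to 24.7). With the library score described below as a covariate, 1 member was called, Ndufaf4 (1.03, adjusted p = 0.0364). That fit called 1310 of all rows, in either direction.

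In the cold, complex I transcripts of inguinal fat stood higher on average, but no member passed the test. After 2 days 35 of 41 members had a positive log2 difference from day 0 and the median was 0.77, beside -0.08 over all 9574 rows tested. After 4 days 39 of 41 were positive and the median was 0.89, beside -0.01. At both days edgeR called 0 members and 0.0% of all rows, either direction. Unadjusted p was under 0.05 in 11 members at day 2 (10.7% of all rows) and 16 at day 4 (8.28% of all rows). DESeq2 called 0 at day 2, and at day 4 it called Ndufb6 (1.60, adjusted p = 0.0145) and Ndufv2 (1.47, adjusted p = 0.0493). Over all 9574 rows, in either direction, it called 111 at day 2 and 41 at day 4. limma voom called 0 at both days.

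At day 2, 11 of 41 members had every cold iWAT library above every day 0 library, against 8.15% of all rows. Ndufb2, a membrane arm subunit, had 57.9, 39, 67.7 and 100 CPM at day 0 and 226, 219 and 169 at day 2, a difference of 1.60 ± 0.46 (adjusted p = 0.303). Ndufaf1 had 31.8, 25.1, 20.2 and 83 CPM at day 0 and 211, 130 and 128 at day 2 (1.93 ± 0.56, adjusted p = 0.306). Ndufs7, which carries the last iron-sulfur cluster before ubiquinone, had 275, 271, 393 and 408 CPM at day 0 and 740, 818 and 692 at day 2 (1.12 ± 0.46, adjusted p = 0.442). These 3 genes did not overlap between the groups, yet none passed adjustment over all rows. The 6 core subunits were all positive, from 0.73 to 1.25. The lowest member was Ndufa1 (-1.40 ± 0.93, adjusted p = 0.58), with 297, 717 and 158 CPM at day 2, inside its day 0 range of 82.4 to 1643.

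At day 4, Ndufs8 and Ndufv2 had every cold library above every day 0 library, 2 of 41 members against 0.856% of all rows. Ndufs8 had 99.3, 97.7, 55.8 and 29.5 CPM at day 0 and 199, 157, 376, 290 and 160 at day 4, a difference of 1.76 ± 0.53 (adjusted p = 0.474). Ndufv2, an iron-sulfur subunit beside Ndufv1, had 97.9, 186, 196 and 206 CPM at day 0 and 584, 770, 354, 463 and 218 at day 4 (1.48 ± 0.41, adjusted p = 0.474). Ndufb6, of the membrane arm, had 296, 359, 286 and 245 CPM at day 0 and 1210, 823, 1107, 1034 and 314 at day 4 (1.60 ± 0.41, adjusted p = 0.474). Its 4 high libraries lie well clear of day 0, and iWAT555 lies among the day 0 values. Without iWAT555, 12 members had all cold libraries above all day 0 libraries, against 4.22% of all rows, the median was 1.14, and edgeR still called 0. Brown adipocyte markers summed to 84.7 to 649 CPM in iWAT at day 0, 4206 to 8625 at day 2 and 707 to 5673 at day 4, with iWAT555 lowest at day 4. Ucp1 alone gave 244, 6321 and 3155 CPM of the means of 272, 6595 and 3283, so these sums rest largely on a single gene. Cidea, Dio2 and Elovl3 also had higher means at both cold days, and Zic1 stayed at 0.0 CPM. Sums of other markers varied with the day as well. Means at days 0, 2 and 4 were 7123, 886 and 2329 CPM for epithelial and keratinocyte markers and 1547, 52.9 and 387 for muscle. Krt17 alone gave 7057, 881 and 2304 CPM of the epithelial and keratinocyte means, so these rest on a single gene. Lymphocyte sums had means of 3001, 3227 and 2160 CPM at days 0, 2 and 4, so they were not lower at day 2. Of 10 tested lymphocyte markers 0 had a positive difference at day 4, with none called. The library highest in the members' sum, iWAT553, had the lowest lymphocyte sum (806 CPM). The part of any of these in the members' differences was not tested.

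In brown fat most members also had a positive difference in the cold, and edgeR called none. At day 2 the median of 41 members was 0.47 (0.01 over all 8270 rows) with 31 positive. At day 4 it was 0.33 (-0.04 over all rows) with 33 positive. Scaled by library size alone the medians were 0.19 and 0.08 (-0.27 and -0.30 over all rows). By edgeR 0 members were called at day 2, where 0.133% of all rows were higher, and 0 at day 4, where 0.0% of rows were called in either direction. Unadjusted p was under 0.05 in 8 and 2 members (12.4% and 7.03% of all rows). DESeq2 called Ndufaf4 (1.73, adjusted p = 0.0104) and Ndufa11 (2.12, adjusted p = 0.0176) at day 2 and none at day 4, and limma voom called none at either day. Over all 8270 rows, in either direction, DESeq2 called 306 at day 2 and 81 at day 4. Of 41 members, 2 at day 2 and 4 at day 4 had every cold library above day 0, against 5.78% and 6.7% of all rows.

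Ndufaf4 gave the lowest p at day 2: 121, 127 and 125 CPM at day 0 and 268, 292 and 509 in iBAT532, iBAT534 and iBAT539 at day 2, with iBAT535 just above these, without overlap (1.77 ± 0.45, adjusted p = 0.156). At day 4 it had 346, 162 and 151 CPM. Ndufa11, a membrane arm subunit, had 66.5, 224 and 155 CPM at day 0 and 343, 213, 903 and 977 at day 2 (2.15 ± 0.61, adjusted p = 0.196); the 2 highest values belong to iBAT535 and iBAT539. Ndufa10 had 502, 400 and 380 CPM at day 0 and 911, 1156 and 913 at day 4, without overlap (1.31 ± 0.56, adjusted p = 0.687). Ndufc2 lay the other way: 2582, 1254 and 2480 CPM at day 0, and 665, 793 and 1051 at day 4, all lower (-1.24 ± 0.49, adjusted p = 0.62). At day 2 it had 1465, 994, 384 and 1043 CPM. The muscle markers were also higher in day 0 iBAT than at day 2, and their part in the level of Ndufc2 was not tested.

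Epididymal fat gave no calls in the cold. The median of 40 members was 0.44 at day 2 and 0.26 at day 4, beside 0.01 and -0.01 over all 10043 rows, with 31 and 27 positive. Scaled by library size alone they were 0.31 and 0.09 (-0.13 and -0.19 over all rows). By edgeR 0 members and 0.0% of all rows were called at either day, DESeq2 and limma voom called 0 members, and 1 and 0 members had an unadjusted p under 0.05 (1.06% and 2.76% of all rows). At day 2, 3 members, and at day 4, 4 members had all cold libraries above day 0, against 2.12% and 4.9% of all rows. Ndufs3 had 295, 462 and 261 CPM at day 0 and 832, 525 and 659 at day 4, without overlap (0.97 ± 0.45, adjusted p = 1.0). Ndufaf4 had 27.4, 24.9 and 70.9 CPM at day 0 and 86, 147 and 64.3 at day 2, which overlap (1.26 ± 0.54, adjusted p = 1.0). The extremes were Ndufaf6 (1.45 ± 1.26) and Ndufa4l2 (-0.62 ± 0.86) at day 2, and Ndufs3 and Ndufa1 (-0.56 ± 1.11) at day 4, all with an adjusted p of 1.0.

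**Figure D3:**
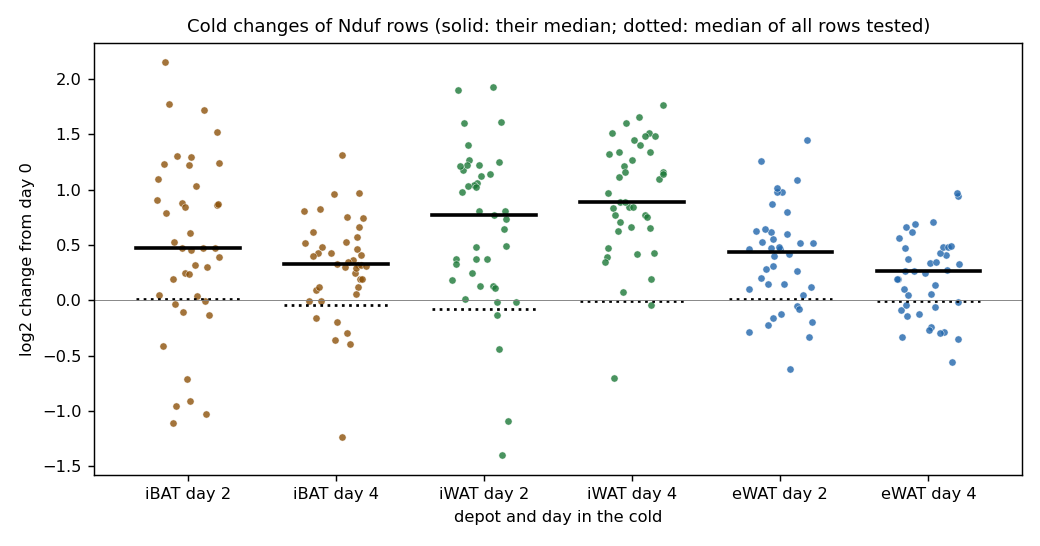
Log2 change from day 0 of each tested Nduf row (points, spread sideways at random) by depot and day in the cold; solid lines are the members' medians and dotted lines the medians of all rows tested. The members' medians are 0.47, 0.33, 0.77, 0.89, 0.44 and 0.26 from left to right, and no point passed the adjusted threshold in edgeR.

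Whether the cold difference depends on the depot was tested directly. Relative to iWAT, the change in iBAT had a member median of -0.62 at day 2 and -0.49 at day 4. The change in iWAT relative to eWAT had medians of 0.58 and 0.66, and that in iBAT relative to eWAT 0.04 and -0.09. In all 6 tests edgeR called 0 of 41 members and 0.0% of all rows, and DESeq2 and limma voom called 0 members. Unadjusted p was under 0.05 in 3, 1 and 1 members at day 2 (iBAT against iWAT, iBAT against eWAT, iWAT against eWAT) and in 7, 0 and 8 at day 4. The shares of all rows were 10.4%, 4.29% and 5.33% at day 2 and 5.76%, 4.03% and 4.06% at day 4. Ndufc2 had the lowest p of these tests. From day 0 to day 4 its mean went from 2106 to 836 CPM in iBAT and from 284 to 811 CPM in iWAT, a difference of changes of -2.85 ± 0.87 (adjusted p = 0.691), and its iWAT mean at day 4 rests on iWAT548 (2291 CPM, the others 207 to 668).

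After 4 days in the cold, brown fat still exceeded epididymal fat in most members, while fewer members separated it from inguinal fat. Against eWAT, 23 of 41 members were higher in iBAT (median 2.09, all rows -0.41), where 6.67% of all rows were. Against iWAT, 8 of 41 were (median 0.97, all rows -0.37), where 5.83% of all rows were. Inguinal fat was higher than epididymal fat in 6 of 41 (median 1.13, all rows 0.05), where 4.49% of all rows were. No member was lower in any of the 3. Members with every library of the first depot above every library of the second numbered 29, 8 and 2, against 11.5%, 6.5% and 6.95% of all rows. Whether the counts of day 0 and day 4 differ was tested only through the differences of changes above.

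Ndufa6 had 4019, 4235 and 5406 CPM in iBAT and 2376, 1728, 846, 1311 and 784 in iWAT (1.69 ± 0.36, adjusted p = 0.00157). These did not overlap. Ndufs3, a core subunit, differed by 1.60 ± 0.45 from iWAT (3343 against 1100 CPM, adjusted p = 0.0135), and Ndufaf1 by 2.06 ± 0.60 (286 against 68.6 CPM, adjusted p = 0.018). Further calls against iWAT were Ndufs7 (1.39 ± 0.40, adjusted p = 0.0157), Ndufb2 (1.46 ± 0.46, adjusted p = 0.0288), Ndufa3 (1.22 ± 0.43, adjusted p = 0.05, just inside the threshold) and Ndufaf5. Against eWAT, Ndufa10 differed by 2.72 ± 0.65 (adjusted p = 0.00522), Ndufs4 by 2.48 ± 0.59 (adjusted p = 0.00487) and Ndufa3 by 2.47 ± 0.52 (adjusted p = 0.00185).

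Ndufaf5, which hydroxylates Ndufs7 during assembly, had the largest fitted differences of brown fat at day 4, from few reads and 1 library. Its levels were 21.5, 0 and 1.87 CPM in iBAT, 2.06, 1.16, 0, 2.27 and 0.536 in iWAT and 1.37, 0.487 and 0 in eWAT. The high value is iBAT548, so the groups overlap. The differences of 2.75 ± 0.96 from iWAT (adjusted p = 0.0459) and 3.60 ± 1.17 from eWAT (adjusted p = 0.0331) became -0.12 (adjusted p = 0.954) and 0.68 (adjusted p = 0.769) without it.

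The 6 members higher in iWAT than in eWAT at day 4 were Ndufb3, Ndufb6 and Ndufb7 of the membrane arm, Ndufv1 and Ndufv2 of the NADH-binding module, and Ndufaf4. Ndufb3 had 252, 601, 382, 744 and 85.4 CPM in iWAT and 127, 77 and 128 in eWAT (1.90 ± 0.48, adjusted p = 0.01), with iWAT555 inside the eWAT range. Ndufaf4 differed by 1.84 ± 0.50 (147 against 40.9 CPM, adjusted p = 0.017), Ndufb7 by 1.81 ± 0.58 (adjusted p = 0.0421), Ndufv2 by 1.49 ± 0.43 (adjusted p = 0.025), Ndufv1 by 1.49 ± 0.47 (adjusted p = 0.0401) and Ndufb6 by 1.37 ± 0.40 (adjusted p = 0.0275). This count rested on single libraries: it was 0 without eWAT551, 1 without eWAT553, 3 without iWAT550 or iWAT551, and 12 without iWAT555. Calls over all rows, in either direction, moved too, from 1097 to 468, 862, 860, 824 and 1296 in the same order. The count of iBAT against iWAT was 15 without iBAT548 and 5 without iBAT550, iWAT551 or iWAT555. Over all rows, calls went from 1940 to 1380, 1230, 1590 and 1481. The count of iBAT against eWAT was 14 without eWAT551, where calls over all rows went from 1993 to 1161.

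Within groups, members did not all vary in the same direction. Libraries of every depot spread along a shared axis, and each library was scored by its place on the axis found in the other depots, from genes that are not members. Across libraries of a depot, 10 of 41 members had a negative slope of log2 level on the score in all 3 depots, 17 a positive slope in all 3, and 14 mixed signs. Slopes are log2 units per SD of the score and are descriptions only. In the order iBAT, iWAT and eWAT, the slopes were -1.07, -0.77 and -0.86 for Ndufb9, and -1.03, -0.80 and -1.01 for Ndufab1. Ndufaf6 had 1.88, 1.89 and 1.62, and Ndufa1 1.26, 1.54 and 1.67.

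The spread this leaves is wide within a single group. In iBAT at day 4, Ndufb9 had 1078 CPM in iBAT548 (score 1.58) and 11387 and 11628 in iBAT550 and iBAT555 (scores -0.96 and -0.82). In the same libraries Ndufa1 had 4239, 442 and 736 CPM. In iWAT at day 0, Ndufa1 had 82.4 CPM in iWAT522 (score -1.49), while the other libraries, with scores of 0.65 to 1.11, had 951 to 1643. Ndufb9 made up 3.02% to 22.2% of all member transcripts depending on the library. Among core subunits, Ndufv2 had slopes of -0.30, 0.04 and -0.06, while Ndufs8 had 0.15, 0.51 and 0.84. With the score as a covariate the members called higher in iBAT numbered 35 against iWAT and 36 against eWAT at day 0, while calls over all rows, in either direction, went from 1976 to 2442 and from 1135 to 1661. What the score measures was not tested, and across 7898 genes the axis had r = -0.0237 with log2 transcript length, a description across genes that share libraries.

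**Figure D4:**
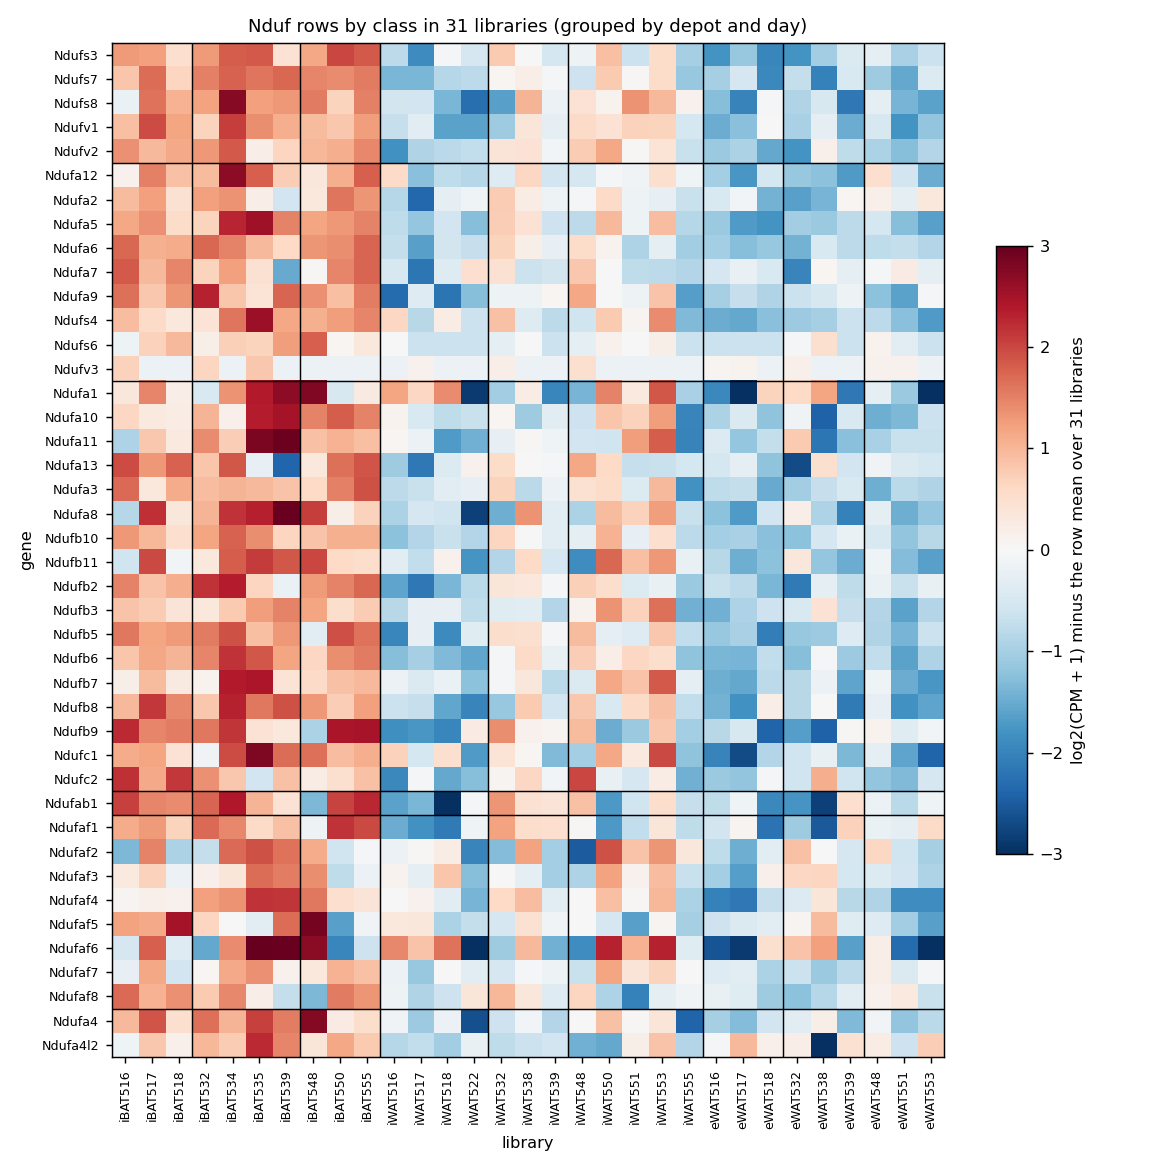
Level of each Nduf row but 1 in each library as log2(CPM + 1) minus the row's mean over 31 libraries, with the colour held at 3 beyond a difference of 3; lines separate classes of genes and groups of libraries. Most rows are redder in iBAT than in white fat, while Ndufa1 and Ndufaf6 alternate within groups and Ndufb9 is low in iBAT548.

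**Figure D5:**
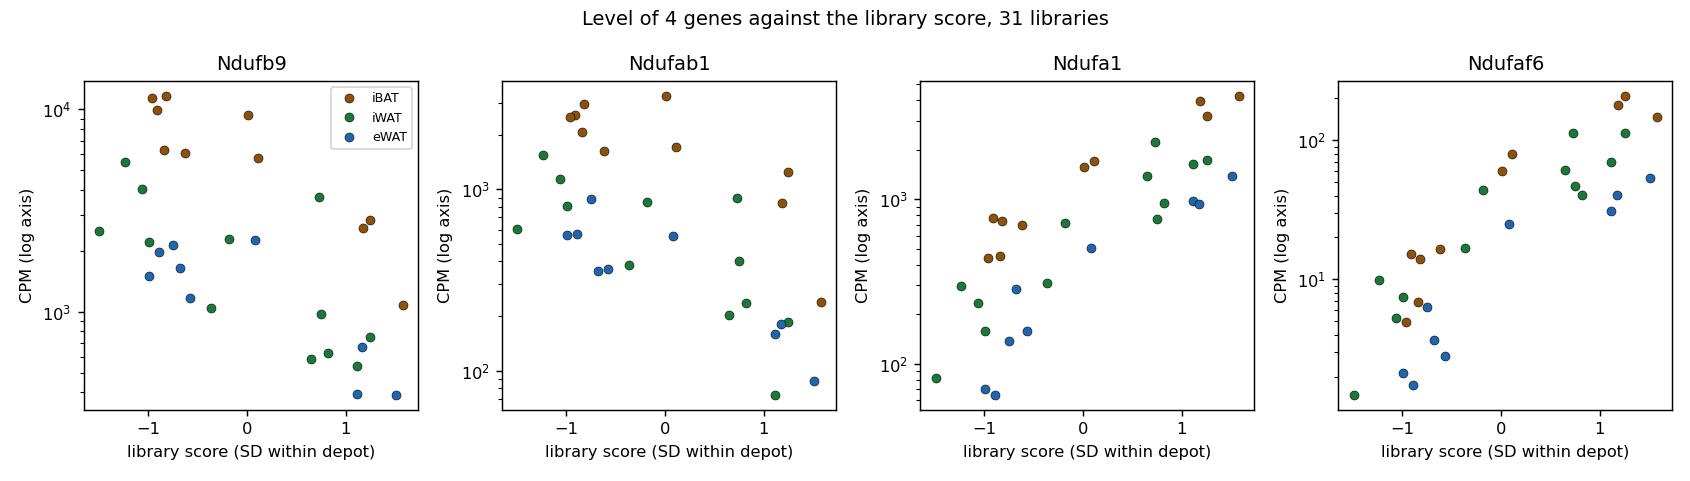
Level of Ndufb9, Ndufab1, Ndufa1 and Ndufaf6 (CPM, log axis) against the library score in SD within a depot, with 1 point for each of 31 libraries, coloured by depot. Ndufb9 and Ndufab1 fall to the right in each depot and Ndufa1 and Ndufaf6 climb, with slopes of -1.07 to -0.77 for Ndufb9 and 1.62 to 1.89 for Ndufaf6.

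Other mitochondrial genes were set beside the members. Of 36 tested genes of respiratory complexes II to V, 23 were higher in iBAT than in iWAT at day 0 (median 1.71) and 24 higher than in eWAT (2.32); at day 4 these were 22 (1.44) and 30 (2.46), and 11 were higher in iWAT than in eWAT (1.12). The largest differences of iBAT from iWAT at day 0 were in Cox6a2 (5.24 ± 0.92, adjusted p = 0.000205) and Cox7a1 (4.37 ± 0.60, adjusted p = 1.4e-05), complex IV isoforms also known from muscle, and in Atp5e (3.20 ± 0.50, adjusted p = 5.3e-05), an ATP synthase subunit. Their cold medians were 0.54 and 0.68 in iBAT and 0.77 and 0.95 in iWAT, with 0 called. For the mitochondrial ribosome, 18 of 71 were higher in iBAT than in iWAT at day 0 (median 0.97) and 15 than in eWAT (0.98), led by Mrpl42 (2.49 ± 0.61 from iWAT, adjusted p = 0.00527, and 2.87 ± 0.69 from eWAT, adjusted p = 0.00725). Cytosolic ribosomal proteins, whose transcripts are also short, had 0 of 67 higher and 17 lower in iBAT than in iWAT at day 0, with a median of -0.95, Rps7 lowest (-2.76 ± 0.96, adjusted p = 0.0459). Against eWAT 0 were higher or lower in iBAT (median 0.14), and 8 were higher in iWAT than in eWAT (median 1.04). Over all tested rows of under 1000 bases the medians of iBAT against iWAT and eWAT at day 0 were -0.24 and -0.07. These lists were chosen with earlier results of the data known, and the difference between lists was not tested.

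Of 11 further genes of complex I assembly, 8 had a row and were tested between depots. Foxred1, an assembly oxidoreductase, was higher in iBAT than in iWAT (2.46 ± 0.63, adjusted p = 0.0074) and eWAT (2.45 ± 0.68, adjusted p = 0.0207) at day 0. Dmac2, also an assembly gene, was higher at day 0 in iBAT (1.89 ± 0.41, adjusted p = 0.00291) and in iWAT (1.67 ± 0.39, adjusted p = 0.00661) than in eWAT. Acad9, Timmdc1 and Tmem126b, which join Ndufaf1 in an assembly complex, differed between iBAT and iWAT at day 0 by 1.07 ± 0.44, 1.03 ± 0.37 and 1.08 ± 0.42 (adjusted p = 0.0928, 0.0555 and 0.0722). None of the 8 was called in the cold within iBAT, nor any of the 7 tested in iWAT and in eWAT.

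Among 6 tested regulators of mitochondrial genes, 2 were higher in iBAT than in each white depot at day 0, though the median of the 6 against iWAT was -0.25. Ppargc1a, Esrrg and Nrf1 were on the same list but were not tested in any comparison, so the counts here do not cover them. Ppargc1b, a coactivator of respiratory genes, differed by 2.79 ± 0.44 from iWAT (adjusted p = 6.1e-05) and 3.27 ± 0.49 from eWAT (adjusted p = 7.55e-05). Esrra, the nuclear receptor that binds the ERR letters, differed by 1.57 ± 0.49 (adjusted p = 0.0262) and 1.86 ± 0.54 (adjusted p = 0.0274). The other 4 were not called against iWAT at day 0: Pprc1 -2.32 ± 0.97 (adjusted p = 0.0965), Yy1 -0.51 ± 0.35 (0.318), Gabpa -0.40 ± 0.89 (0.782) and Tfam -0.09 ± 0.38 (0.886). Yy1 was lower in iBAT than in iWAT at day 4 (-1.34 ± 0.35, adjusted p = 0.00803). In the cold 0 of the 6 were called in any depot. Esrra gave 1.14 ± 0.36 in iBAT and 1.40 ± 0.53 in iWAT at day 2 (adjusted p = 0.222 and 0.415), and Tfam, the packaging and transcription factor of mitochondrial DNA, 0.51 ± 0.38 and -0.13 ± 0.40 (adjusted p = 0.602 and 0.91).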

How the data were processed

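RNA-seq of 31 libraries was analysed from raw counts per RefSeq accession, deposited by the authors in 1 table per depot. The submitters' processing notes name cutadapt, BWA and build mm10; versions, the counting step, strand use and duplicate removal are not given in the sources used here. Empty (NA) entries were taken as a count of 0. Reads of overlapping or antisense genes cannot be told apart. Of the columns of per-sample values, 0 were left unused.

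Of 17334 accessions, 17026 took a symbol from RefSeq (GRCm38.p6), 109 from GENCODE M21 and 199 had none. In R 4.3.3, edgeR 4.0.16 tested the counts (TMM scaling, filterByExpr with a minimum count of 10 and total of 15, robust quasi-likelihood F-tests, two-sided, Benjamini-Hochberg adjustment within each comparison, threshold 0.05). Each depot was fitted alone for cold against day 0 (8270, 9574 and 10043 rows in iBAT, iWAT and eWAT). All 31 libraries were fitted together for depots and for differences of changes (11041 rows). SE is the absolute log2 difference divided by the square root of F. Levels are CPM on TMM-scaled library sizes, and marker sums are CPM of the plain total. The library score used log2 CPM with a prior count of 2. The common biological coefficient of variation ran from 0.538 to 0.587. No molecular identifiers are recorded.

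On simulated data the iBAT against iWAT fit at day 0 (11041 genes) found 29% of 4-fold and 61% of 8-fold changes. The iWAT day 4 against day 0 fit (9574 genes) found 39% and 79%. Unchanged rows were called 1 time in the first fit and 6 times in the second. The changed rows were drawn at random from all rows tested, and each row was simulated on its own. The shares found therefore do not carry over to the members.

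The members and lists were chosen with earlier results of these data known. Members were named by class (core subunits, Ndufab1, Ndufa4, Ndufa4l2, the Ndufaf genes), as the up to 5 called with the largest difference in each direction or, with none called, as those of lowest p, highest and lowest difference. Up to 3 genes of other lists were named by size; further genes were chosen after their values were seen. Alternatives were no filter, only the groups compared, the score as covariate, counts summed per symbol, a replicate block, leaving out libraries, DESeq2 1.42.0, limma voom (limma 3.58.1), and scaling by RLE or by total alone. Values of 1 member are not reported here, though it is part of the counts, medians and sums.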

Additional observations from a re-analysis of the deposited data

Results flagged for a closer look

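Of 126 groups of 4 or more libraries examined over members and their sum, 5 held a library far from the others by Dixon's criterion. Chance alone flags about 1 in 20 groups. In iWAT at day 0, Ndufa12 stood at 636 CPM in iWAT516 against 178 to 251 in the other 3, and Ndufb9 at 2502 CPM in iWAT522 against 540 to 628. In iWAT at day 4, Ndufc2 stood at 2291 CPM in iWAT548 against 207 to 668. In iBAT at day 2, Ndufs8 stood at 975 CPM in iBAT534 against 340 to 359. The summed member level of iWAT517, 8830 CPM, was the lowest at day 0 against 11323 to 11836.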

How the results depend on the processing

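Members called in the cold stayed at 0 under each alternative except DESeq2, which called 2 in iBAT at day 2 and 2 in iWAT at day 4. Its calls over all rows, in either direction, were 306 and 41 in the same order. For iBAT against eWAT at day 0 (22), the score as covariate gave 36 and leaving out iWAT555, eWAT516, eWAT532 and eWAT551, chosen after seeing the data, gave 13. For iWAT against eWAT at day 0 (0), DESeq2 gave 1 and the score 1, beside 1283 and 1310 of all rows in either direction. For iBAT against iWAT at day 4 (8), library size alone gave 5, DESeq2 16 and leaving out iBAT539 and iBAT548 15. Over all rows, in either direction, calls went from 1940 to 2768, 2750 and 1498 in the same order. For iWAT against eWAT at day 4 (6), no filter gave 3 and DESeq2 12, where calls over all rows went from 1097 to 973 and 1518. Leaving out 1 library gave 17 to 23 for iBAT against iWAT and 11 to 17 for iBAT against eWAT at day 0, then 5 to 15, 14 to 24 and, for iWAT against eWAT, 0 to 12 at day 4, and 0 elsewhere. Library size alone moved the median of all rows from -0.18 to -0.62 (iBAT against eWAT, day 0), and the members' median from 2.08 to 1.64. It also took the members' median from 0.23 to 0.10 (iWAT against eWAT, day 0). The score moved the members' median difference of day 4 changes of iBAT against iWAT from -0.49 to -0.89. The cause of these shifts was not tested.

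Single values turned sign as follows. With the score, Ndufa1 went to 0.69 (iWAT day 2), 0.63 (eWAT day 4) and -0.62 (day 4 change, iBAT against iWAT), and Ndufaf6 to -1.77 and 0.81 (day 2 changes, iBAT against iWAT and iWAT against eWAT). Ndufa1 went to 1.33 in eWAT at day 4 without eWAT518, and to -0.79 in the day 4 change without iBAT548, with or without iBAT539. Ndufaf5 went to -0.12 (iBAT against iWAT, day 4) under the same settings. Over all single libraries left out, these 3 ran from -1.28 to 1.33, from -0.79 to 1.24 and from -0.12 to 3.35.

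Label numbers recur across depots within a day. Same-numbered libraries had correlations of within-group deviations from -0.552 to 0.42, over 0.1 in 7 of 23 pairs. Libraries with different numbers ran from -0.792 to 0.754. The deviations are from means of small groups and lie largely along the shared axis. They therefore cannot show whether a number marks a shared animal, and the main fits did not pair libraries. A replicate block gave 18 and 21 members (iBAT against iWAT and eWAT, day 0), 4, 19 and 2 (iBAT against iWAT and eWAT, and iWAT against eWAT, day 4) and 0 elsewhere. No block can be fitted within a depot, where numbers are not shared. Depth of 1.5 M counts limits low rows such as Ndufaf5.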
